A study of Homo sapiens with 2 samples.

Results

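The immediate early factors described here are 10 genes, JUN, JUNB, JUND, FOS, FOSL1, FOSL2, EGR1, KLF6, IER2 and IER3. They were taken as every probe set that the array annotation pairs with one of these symbols alone, which gave 26 of 54675 probe sets, or 10 of 19775 named genes. The measurements come from 2 Affymetrix U133 Plus 2.0 arrays of HT-29 cells, an established human colorectal adenocarcinoma line. The MYC siRNA group is 1 array of cells transfected with a commercial siRNA pool that targets MYC. The control siRNA group is 1 array of cells transfected with a non-targeting pool, although None is entered as its treatment in the labels. In both groups 80000 cells were seeded per well, transfected with 20 nM siRNA by lipofection for 24 h and used after 48 h, and whether the 24 h is part of the 48 h is not stated. The cells grew in medium with fetal bovine serum, and no serum starvation, added growth factor or drug is named for either array. The question asked of these arrays was which transcripts differ once MYC is targeted.

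Immediate early genes are switched on within minutes of a growth signal, from transcription factors that are already in the nucleus. Kinases of the ERK and JNK pathways phosphorylate ELK1 and related factors, which sit with SRF on serum response elements, and they also phosphorylate JUN itself. JUN and FOS proteins pair through leucine zippers to make AP-1, a factor that binds TGACTCA and related sites. JUN proteins can also pair with each other, whereas FOS proteins need a JUN partner. EGR1 and KLF6 are zinc finger factors that bind GC-rich DNA, and IER2 and IER3 are short-lived proteins of other kinds induced by the same signals. In colorectal epithelium AP-1 is known for its part in growth and in the expression of proteases and cytokines.

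The targeted gene, MYC, had a signal of 1640 with MYC siRNA and 1963 with control siRNA in its single probe set. This is 1.20-fold lower, a log2 ratio of -0.26, and short of 2-fold. The study reports MYC knockdown by siRNA in HT-29 cells with immunoblots of MYC protein, which these arrays do not measure. It also reports slower cell growth after MYC siRNA and lower expression of curated sets of MYC target genes. The MAS5 signals, a summary of the probes of each probe set on a linear scale, exceeded 50 in 16571 probe sets with MYC siRNA and in 16074 with control siRNA. As a check of RNA quality, the 3' probe set of ACTB was 1.14 times as bright as the 5' one with MYC siRNA and 1.16 times with control siRNA. Of 12 marker genes of colorectal epithelium, 9 were above 50, but CDX1, CDX2 and GPA33 were not in either array. Of 16 markers of fibroblasts, leukocytes and endothelium that had a probe set, only COL1A1 and LYZ were above 50, and LYZ is also made by epithelial cells. Of the 9 epithelial markers above 50, 7 were higher with MYC siRNA and 2, EPCAM and KRT18, were lower. Over all genes above 50, 53.5% were higher. Summed over the epithelial list, in which bright probe sets weigh most, the signal was 42291 with MYC siRNA and 36373 with control siRNA. The part of this difference in the results below was not tested.

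MYC siRNA went with slightly higher signals of JUN, JUND, FOS, FOSL2 and KLF6, and with signals of JUNB, FOSL1 and EGR1 that were slightly lower or went both ways. Signals under 50 were set to 50 before a ratio was taken, and a probe set counted as measured if either array exceeded 50. Of the 26 probe sets 21 were measured, and 17 of these were higher with MYC siRNA and 4 lower. The 17 are 81.0%, against 50.8% of all measured probe sets, and several of them belong to the same gene. The 10 genes were also chosen with earlier results of these data known, so such shares cannot show an excess. No measured probe set of the 10 genes was at least 2-fold higher or at least 2-fold lower, the rule used in the study. Over the whole array, 2.19% of the 17127 measured probe sets were at least 2-fold higher and 0.607% at least 2-fold lower. At 1.5-fold, 4 of the 21 were higher, which is 19.0%, against 9.13% of all measured probe sets, and 0 were lower, against 5.83%. These 4 belong to only 3 genes, JUND, FOS and FOSL2. The median log2 ratio was 0.24 over the 21 probe sets and 0.0077 over all.

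With 1 array in each group there is no replicate error, so no test was possible and each difference describes these 2 arrays only. As a rough scale, probe sets of the same gene differed in log2 ratio with an SD of 0.28, 0.23 and 0.17 in dim, middle and bright genes. This SD holds the disagreement between probe sets and leaves out the variation between cultures. More transcript per cell and more cells that carry the transcript cannot be told apart in RNA from whole cultures. Signals of different probe sets are not compared with each other, since each has its own probe affinity. Probe sets whose names end in _s_at or _x_at can bind transcripts of several genes or forms, and the brightest ones of JUN, JUND, EGR1, KLF6 and IER3 are of this kind.

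**Figure D1:**
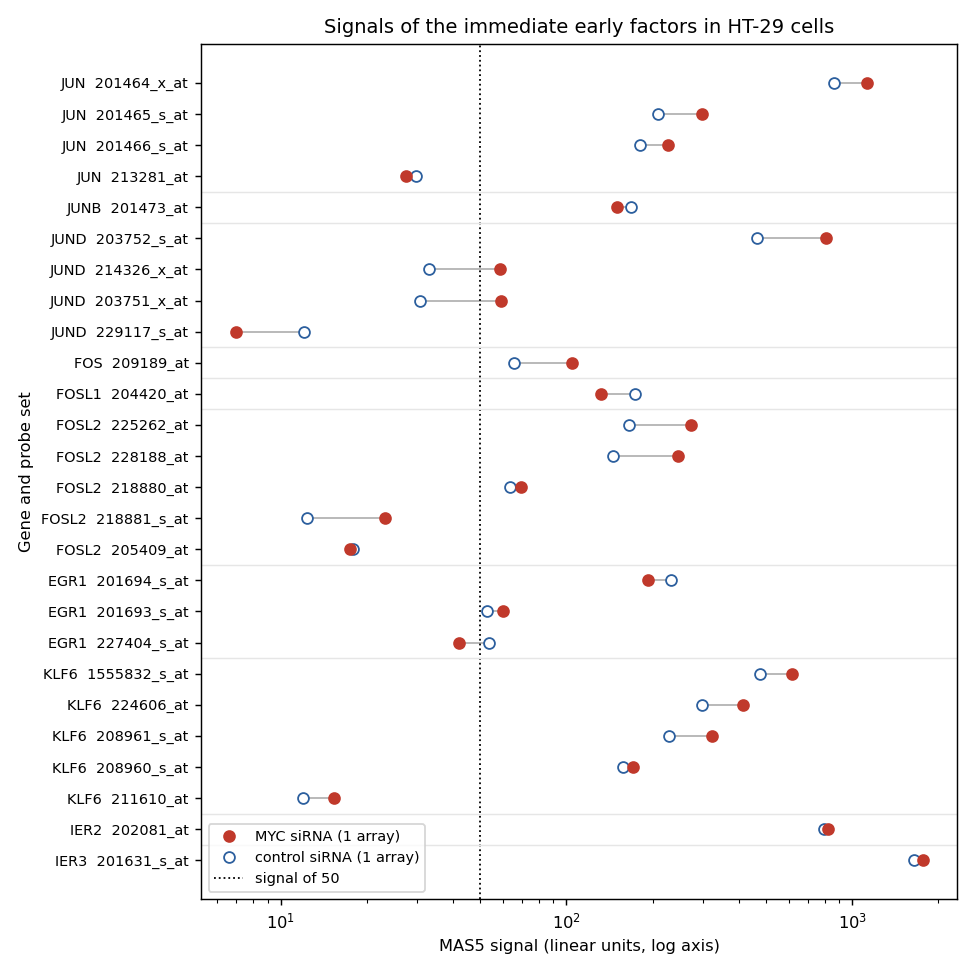
MAS5 signal (log axis) of all 26 probe sets of the 10 genes with MYC siRNA (filled) and control siRNA (open), 1 array each, with the dotted line at 50. The filled points lie to the right in the measured probe sets of JUN, JUND, FOS, FOSL2 and KLF6, and 5 probe sets lie left of the line in both arrays.

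JUN, the founding member of AP-1 and the main substrate of JNK, was higher with MYC siRNA in each of its 3 measured probe sets. The brightest, 201464_x_at, had a signal of 1128 with MYC siRNA and 861 with control siRNA (1.31-fold higher, log2 ratio 0.39). Probe set 201465_s_at gave 297 and 209.7 (1.42-fold) and 201466_s_at gave 227 and 180.2 (1.26-fold), in each case with MYC siRNA before control siRNA. The 3 log2 ratios spanned 0.17 and all exceeded the SD between probe sets. The fourth probe set, 213281_at, was not above 50, with 27.5 with MYC siRNA and 29.7 with control siRNA. Over all measured probe sets, 17.5% had a log2 ratio at least as high as that of 201464_x_at.

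JUND, a JUN family protein that is present in resting cells and is often a weaker activator than JUN, had the highest log2 ratio of the 10 genes. Probe set 203752_s_at had a signal of 808 with MYC siRNA and 466 with control siRNA, 1.73-fold higher with a log2 ratio of 0.79. A ratio at least this high was found in 4.29% of all measured probe sets. The dim probe sets 214326_x_at and 203751_x_at were under 50 with control siRNA. They gave 58.4 and 59.2 with MYC siRNA, against 33.2 and 30.6 with control siRNA, so they were at least 1.17-fold and at least 1.18-fold higher. Probe set 229117_s_at was not above 50, with 6.96 with MYC siRNA and 12.0 with control siRNA. JUND therefore rests on 1 clearly measured probe set.

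JUNB, which antagonizes JUN at many promoters, had 1 probe set. Its signal was 151 with MYC siRNA and 168 with control siRNA, 1.11-fold lower. The log2 ratio of -0.16 was within the SD between probe sets of that brightness. Thus JUN and JUND were higher on these arrays, while the direction of JUNB was not settled by its 1 probe set.

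FOS, the classic gene induced by serum, was dim. Its only probe set had a signal of 104 with MYC siRNA and 65.6 with control siRNA, 1.59-fold higher. The log2 ratio of 0.67 exceeded the SD, but lies below 0.69, the 90th percentile among the probe sets of like brightness when all were split into 5 equal groups by mean signal. With signals under 100 set to 100 the log2 ratio was 0.059.

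FOSL2, a FOS relative without the strong activation domain of FOS, had 5 probe sets, of which 3 were measured and all of these were higher. Probe set 225262_at had 274 with MYC siRNA and 166 with control siRNA (1.65-fold, log2 ratio 0.72). Probe set 228188_at had 246 with MYC siRNA and 146 with control siRNA (1.69-fold, log2 ratio 0.75). These probe sets gave nearly the same ratio. The dim 218880_at was nearly level, with 69.5 with MYC siRNA and 63.4 with control siRNA (1.10-fold). Probe sets 218881_s_at and 205409_at were not above 50, with 23.3 and 17.5 with MYC siRNA, against 12.4 and 18.0 with control siRNA.

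FOSL1, whose product FRA1 accumulates under sustained ERK signalling, went the other way. Its 1 probe set had a signal of 132 with MYC siRNA and 174 with control siRNA, 1.31-fold lower. The log2 ratio of -0.39 was larger than the SD between probe sets, and 13.0% of all measured probe sets had one at least as low. Among the FOS family, FOS and FOSL2 were thus higher with MYC siRNA and FOSL1 lower.

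EGR1, a zinc finger factor that serum induces within minutes, had no clear direction. Probe set 201694_s_at had 193 with MYC siRNA and 233 with control siRNA, 1.21-fold lower with a log2 ratio of -0.27. Probe set 201693_s_at went the other way, with 59.8 with MYC siRNA and 52.8 with control siRNA (1.13-fold higher). Probe set 227404_s_at had 42.2 with MYC siRNA and 53.6 with control siRNA, at least 1.07-fold lower. The last pair lie close to 50, where ratios are least certain.

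KLF6, a Kruppel-like factor known as a growth suppressor, was higher in 4 of 4 measured probe sets. The brightest, 1555832_s_at, had a signal of 615 with MYC siRNA and 476 with control siRNA (1.29-fold, log2 ratio 0.37). Probe set 224606_at had 416 with MYC siRNA and 297 with control siRNA (log2 ratio 0.48). Probe set 208961_s_at had 323 with MYC siRNA and 229 with control siRNA (1.41-fold). These 3 log2 ratios, 0.37 to 0.50, all exceeded the SD between probe sets. That of 208960_s_at, with 171 with MYC siRNA and 158 with control siRNA, was 0.12 and did not. Probe set 211610_at was not above 50, with 15.4 with MYC siRNA and 12.0 with control siRNA.

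IER2 and IER3, a nuclear protein and a regulator of cell survival, were bright and nearly level. IER2 had a signal of 821 with MYC siRNA and 795 with control siRNA, 1.03-fold higher. IER3 had 1769 with MYC siRNA and 1639 with control siRNA, 1.08-fold higher. Both log2 ratios, 0.046 and 0.11, were within the SD of 0.17 between probe sets of bright genes.

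**Figure D2:**
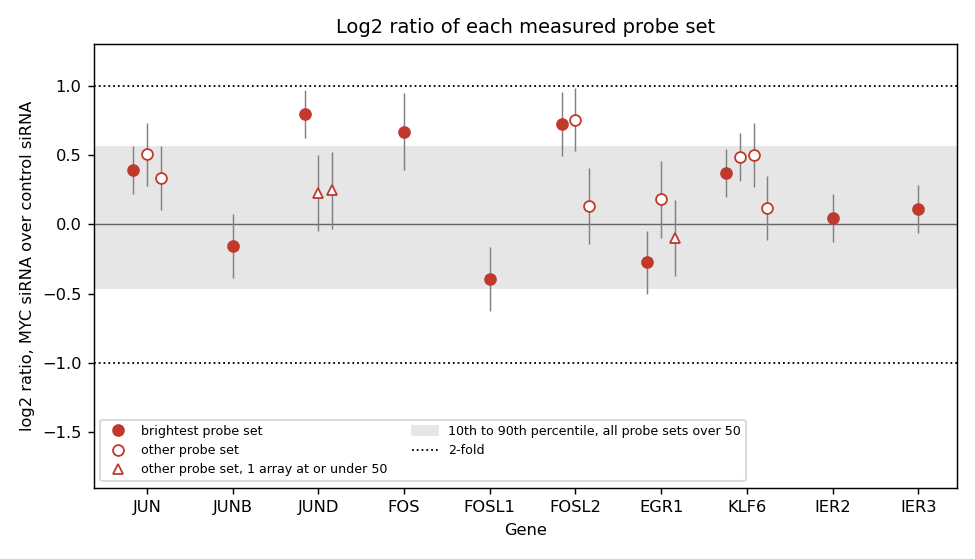
Log2 ratio (y axis; MYC siRNA to control siRNA) for the 21 measured probe sets by gene (x axis), with the brightest probe set of each gene filled and triangles where 1 array was at or under 50. Lines show 1 SD between probe sets in genes of like brightness, the grey band, from the 10th to the 90th percentile of all measured probe sets, spans -0.46 to 0.56 and the dotted lines mark 2-fold. The 4 probe sets above the band are those of JUND, FOS and FOSL2 past 1.5-fold, and none lies below it.

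Taking the brightest probe set of each gene, 7 of the 10 genes were higher with MYC siRNA and 3 lower, with a median log2 ratio of 0.24. Of all 8917 measured genes 53.5% were higher, and their median was 0.033. JUND, FOSL2 and FOS passed 1.5-fold, that is 3 of 10 genes, against 10.4% of all measured genes at least 1.5-fold higher, and 0 of 10 were at least 1.5-fold lower, against 5.72%. Since the ratio depended on the signal, the genes were also set beside probe sets of like brightness. In the brightest of 5 equal groups of probe sets the median log2 ratio was -0.11 and the 90th percentile 0.39, and the 0.79 of JUND lay above it. The brightest probe set of JUN, in the same group, was barely above it, at 0.3897 against 0.3889. In the next brightest group the 90th percentile was 0.498. Of the KLF6 probe sets in that group only 208961_s_at, at 0.499, was barely above it. In the middle group the median was 0.027 and the 90th percentile 0.57, and the bright probe sets of FOSL2 lay above it. Each gene kept its direction in every alternative setting that gave it a value, but the sizes moved. All settings reuse the same 2 arrays, so a kept direction is not a replicate. Some could not change a ratio, such as means over probe sets for genes with 1 probe set. Across the settings JUND ranged from 0.32 to 0.83, FOSL2 from 0.32 to 0.72, FOS from 0.059 to 0.67, JUN from 0.31 to 0.46 and KLF6 from 0.29 to 0.48. Each of the 3 genes past 1.5-fold, a log2 ratio of 0.585, lost that call in at least 1 setting. JUND was at 0.32 as a mean over its probe sets. FOSL2 was at 0.32 as such a mean and at 0.54 as a ratio of mean signals. FOS was at 0.059 with signals under 100 set to 100, at 0.56 after quantile normalization and at 0.58 after loess.

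**Figure D3:**
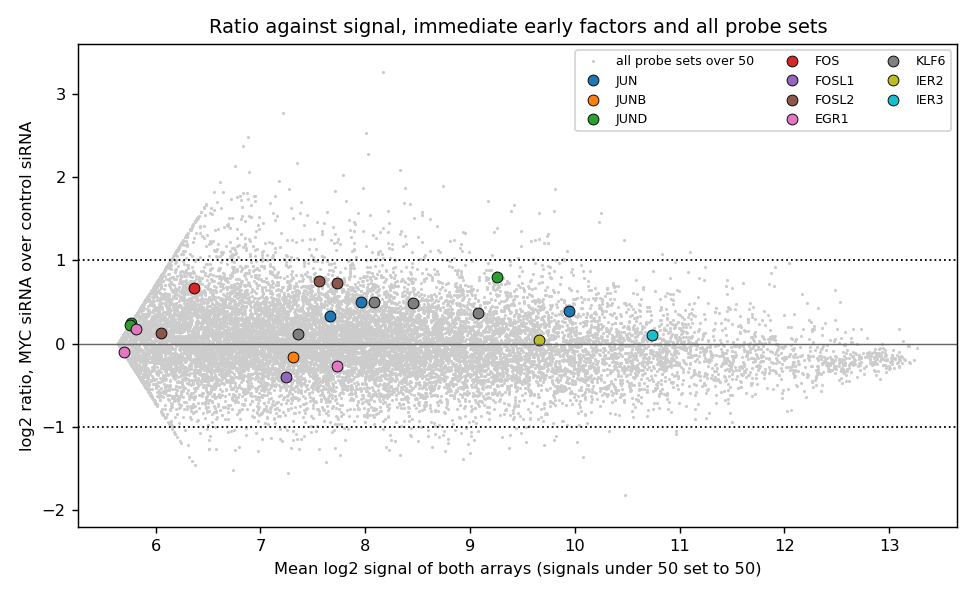
Log2 ratio (y axis) against the mean log2 signal of both arrays (x axis) for all 17127 measured probe sets (grey) and those of the 10 genes (coloured), with dotted lines at 2-fold. The 21 coloured points lie between the dotted lines, from -0.39 to 0.79.

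The DNA before the start sites of JUN, JUND, FOSL2 and KLF6 is shown because these genes had at least 3 measured probe sets and all were higher, that of FOS because its single probe set passed 1.5-fold, and that of EGR1 because its probe sets were split. The sequences are from RefSeq on GRCh38.p14, which held 8 of the 10 genes. Each is the 250 bases before the start, 5' to 3' on the strand of the gene. The intervals are chr1:58784048-58784297 (minus strand) for JUN, chr19:18281623-18281872 (minus) for JUND, chr14:75278578-75278827 (plus) for FOS, chr2:28392608-28392857 (plus) for FOSL2, chr10:3785210-3785459 (minus) for KLF6 and chr5:138465229-138465478 (plus) for EGR1. Capitals mark matches to TGACTCA (AP-1), TGACGTCA (the cAMP response element), TGACATCA (a related site bound by JUN with ATF2), the CArG box (the core of a serum response element, 2 C and 2 G around 6 A or T) and CACGTG (an E-box, the kind of site MYC binds with MAX), on either strand.
JUN: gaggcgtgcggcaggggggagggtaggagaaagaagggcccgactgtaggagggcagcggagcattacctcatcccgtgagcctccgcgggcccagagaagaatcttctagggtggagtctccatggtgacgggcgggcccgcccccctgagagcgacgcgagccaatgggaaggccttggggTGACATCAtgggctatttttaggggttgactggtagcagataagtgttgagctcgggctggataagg
JUND: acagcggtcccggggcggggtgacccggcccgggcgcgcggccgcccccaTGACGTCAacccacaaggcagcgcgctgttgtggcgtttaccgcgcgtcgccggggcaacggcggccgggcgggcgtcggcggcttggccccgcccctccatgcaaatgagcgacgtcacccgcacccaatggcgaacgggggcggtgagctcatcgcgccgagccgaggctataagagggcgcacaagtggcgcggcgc
FOS: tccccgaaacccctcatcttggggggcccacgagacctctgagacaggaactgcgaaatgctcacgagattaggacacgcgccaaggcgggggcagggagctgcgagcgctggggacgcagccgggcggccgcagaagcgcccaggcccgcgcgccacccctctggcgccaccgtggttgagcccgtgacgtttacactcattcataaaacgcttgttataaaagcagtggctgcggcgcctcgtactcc
FOSL2: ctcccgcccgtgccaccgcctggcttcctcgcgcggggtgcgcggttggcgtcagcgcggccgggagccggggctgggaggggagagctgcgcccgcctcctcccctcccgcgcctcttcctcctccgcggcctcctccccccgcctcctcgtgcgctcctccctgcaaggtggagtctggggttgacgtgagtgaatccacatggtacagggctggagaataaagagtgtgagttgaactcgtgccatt
KLF6: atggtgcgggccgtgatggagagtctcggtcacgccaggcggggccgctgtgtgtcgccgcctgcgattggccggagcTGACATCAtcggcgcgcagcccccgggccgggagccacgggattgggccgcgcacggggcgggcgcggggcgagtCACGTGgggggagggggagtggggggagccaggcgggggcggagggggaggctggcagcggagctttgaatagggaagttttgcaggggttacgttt
EGR1: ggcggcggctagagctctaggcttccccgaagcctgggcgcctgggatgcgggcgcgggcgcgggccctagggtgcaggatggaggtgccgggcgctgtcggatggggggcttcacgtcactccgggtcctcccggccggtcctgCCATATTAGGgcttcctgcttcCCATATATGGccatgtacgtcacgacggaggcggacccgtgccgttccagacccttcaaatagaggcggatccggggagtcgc

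JUN and KLF6 both held TGACATCA, from 67 to 60 bases before the start in JUN and from 172 to 165 in KLF6. Of all 35116 promoters in the table, 2.37% held it. JUND held TGACGTCA from 200 to 193 bases before its start, a site in 1.65% of all promoters. KLF6 alone of the 8 genes held CACGTG, from 97 to 92 bases before the start, a site in 6.34% of all promoters. EGR1 held a pair of CArG boxes, from 105 to 96 and from 83 to 74 bases before its start, and 1.16% of all promoters held at least 1. FOSL2, JUNB, FOS and IER2 had no match to any of these 5 motifs in this window, and DNA further upstream was not searched. TGACTCA, found in 4.20% of all promoters, was in none of the 8 genes in this window. These are matches of letters, and whether a factor binds there was not measured. The motifs were chosen after the promoters had been read, so the shares cannot show an excess.

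Genes around these factors were looked at through 7 lists, which share members. The lists were chosen with earlier results of these data known, so their shares cannot show an excess. Of 14 partner genes of the JUN, FOS, ATF and MAF families with a probe set, 7 were measured. Of these, 4 were higher, against 53.5% of all measured genes, and 3 lower, with a median log2 ratio of 0.040. This median had no settled sign, since it was -0.047 with signals under 100 set to 100 or with a signal of at least 100 required, -0.041 after quantile normalization, -0.0098 after loess and -0.026 without probe sets of several transcripts. Among them FOSB and ATF3, both also induced early, were not above 50 in either array. MAFF, a small MAF protein that lacks an activation domain, had 615 with MYC siRNA and 409.7 with control siRNA (log2 ratio 0.59), and its other probe set was higher too, with a log2 ratio of 1.10. CREB1, a factor activated by cAMP signalling, had 331 with MYC siRNA and 258 with control siRNA (1.28-fold higher), the highest ratio of its 7 measured probe sets, which spanned log2 ratios of -0.025 to 0.36. CREM, its relative, had 150.3 with MYC siRNA and 189 with control siRNA (1.25-fold lower), although its 3 measured probe sets went both ways. ATF7 was 1.17-fold lower, and its 3 measured probe sets also went both ways, from -0.49 to 0.073.

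Of the kinases and factors that feed the immediate early genes, 14 were measured, 11 higher and 3 lower, with a median log2 ratio of 0.11. Of all measured genes 53.5% were higher, with a median of 0.033. MAPK3, which encodes the kinase ERK1, had 129 with MYC siRNA and 73.4 with control siRNA, 1.75-fold higher. ELK3 and ELK1, both partners of SRF, went opposite ways. ELK3 had 306 with MYC siRNA and 205 with control siRNA (log2 ratio 0.58). ELK1 had 192 with MYC siRNA and 274 with control siRNA (1.43-fold lower). MAP2K2, the kinase MEK2, was 1.22-fold higher.

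Of the other immediate early genes 18 were measured, and 12 more with a probe set were not above 50. Of the 18, 16 were higher, against 53.5% of all measured genes, with a median log2 ratio of 0.33 against 0.033. By the brightest probe sets none was at least 2-fold higher, against 2.73% of all measured genes, and 4 were at least 1.5-fold higher, against 10.4%. SGK1, a kinase activated downstream of PI3-kinase, had 978 with MYC siRNA and 536 with control siRNA, 1.83-fold higher. ZFP36, which destabilizes mRNAs with AU-rich elements, had 528 with MYC siRNA and 335 with control siRNA (1.57-fold higher). IER5, a regulator of the heat shock response, had 591 with MYC siRNA and 379 with control siRNA (1.56-fold higher). The fourth was MAFF, given above. EGR3, EGR4, NR4A1, NR4A2 and NR4A3 were among those not above 50.

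The 10 measured KLF and SP relatives of KLF6 had a median log2 ratio of 0.14. Of these, 7 were higher and 3 lower, against 53.5% of all measured genes higher. The median was 0.040 with means over probe sets and turned to -0.033 without probe sets of several transcripts. By the brightest probe sets none was at least 1.5-fold higher or lower, against 10.4% and 5.72% of all measured genes. KLF13 had 564 with MYC siRNA and 402 with control siRNA (log2 ratio 0.49), KLF3 was 1.38-fold higher with another probe set at a log2 ratio of 0.65, past 1.5-fold, KLF10 was 1.24-fold higher and KLF5, a factor of proliferating intestinal crypts, 1.13-fold higher. The other probe set of KLF5 had a log2 ratio of -0.033. Of the EGR relatives and the NAB corepressors that restrain EGR1, only NAB1 and NAB2 were measured, and both brightest probe sets were lower, with log2 ratios of -0.018 and -0.24, while the other probe set of NAB2 was at 0.20. Of 13 measured genes of JUN and FOS turnover, 7 were higher and 6 lower, against 53.5% of all measured genes higher. The median log2 ratio of the 13 was 0.028. DET1, of a ubiquitin ligase that acts on JUN, was 1.64-fold higher, with 184 with MYC siRNA and 112 with control siRNA. ZFP36L1 was 1.38-fold higher and HNRNPD, which binds AU-rich elements, was 1.38-fold lower.

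Genes known in other settings as AP-1 targets had the widest range of log2 ratios among the 7 lists. Of 23 measured, 17 were higher, against 53.5% of all measured genes, and 6 lower, with a median log2 ratio of 0.39. At least 2-fold higher were 4 of them, against 2.73% of all measured genes, and none was at least 2-fold lower, against 0.695%. At 1.5-fold, 6 were higher, against 10.4% of all measured genes, and 2 were lower, against 5.72%. MMP7, a matrix protease of epithelial tumours, had 1996 with MYC siRNA and 726 with control siRNA, 2.75-fold higher. CXCL8, the chemokine interleukin-8, had 496 with MYC siRNA and 181 with control siRNA, 2.74-fold higher, and its other probe set was higher too, with a log2 ratio of 1.57. SPRR1B, an envelope protein of stratified epithelium, had 124 with MYC siRNA and 34.1 with control siRNA (at least 2.49-fold higher). PLAU, the urokinase protease, had 101 with MYC siRNA and 36.3 with control siRNA (at least 2.02-fold higher), while its other probe set, with a log2 ratio of 0.61, was under 2-fold. The lowest in the list, chosen after its value was seen, was VEGFA, an angiogenic factor, with 188 with MYC siRNA and 323 with control siRNA (1.72-fold lower), and all 4 of its measured probe sets were lower. Most of these genes are also controlled by factors other than AP-1.

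**Figure D4:**
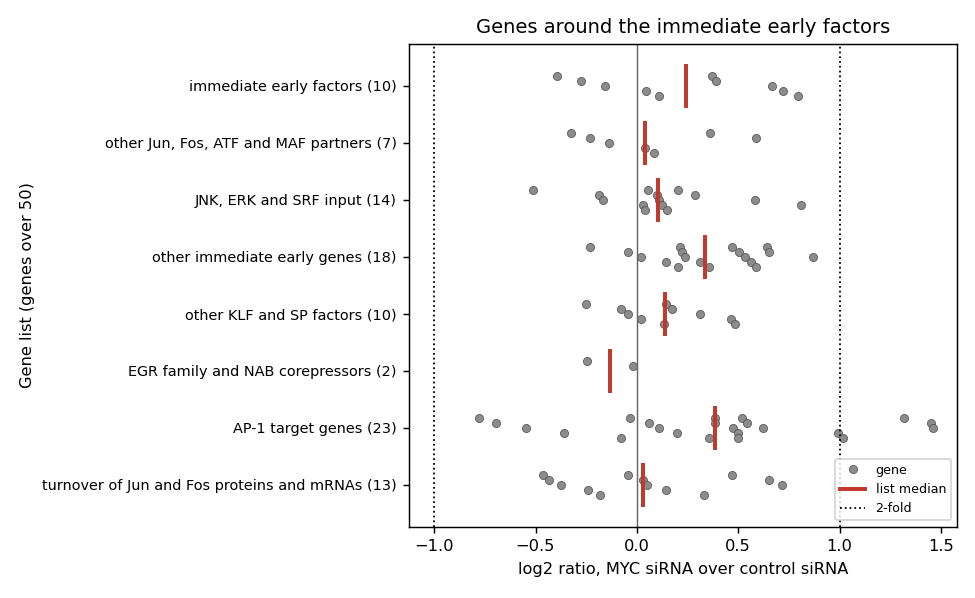
Log2 ratio (x axis; MYC siRNA to control siRNA) for each measured gene (grey) in the 10 immediate early factors and in 7 lists around them, with the number of measured genes in brackets, red bars at the medians and dotted lines at 2-fold. The medians of the immediate early factors, other immediate early genes and AP-1 target genes are 0.24, 0.33 and 0.39, and, by the brightest probe set of each gene, only AP-1 target genes lie past the 2-fold line.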

How the data were processed

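RNA of HT-29 cells was hybridized to 1 array per group. The authors deposited linear intensity values, MAS5 signals from the R package affy, scaled to 100. A trimmed mean that drops 2% of probe sets at either end was 100 in each array. The values had not been floored, logged or normalized between arrays.

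Of 54675 probe sets, 41097 name 1 gene, 1801 several and 11777 none in the platform annotation. Symbols were updated by gene identifier to RefSeq GRCh38.p14. Signals under 50 were set to 50, the log2 ratio was taken, and folds of 2 were counted as in the methods of the study. Each gene was represented by its brightest probe set on average. In both arrays, 37548 probe sets were at or under 50 and have no ratio. Where 1 array was at or under 50 the fold is a lower bound. All 10 genes are named with every probe set, and from each list at most 4 genes, those with the largest absolute log2 ratio whose brighter array reached 100. The 10 genes and the lists were chosen with earlier results of these data known, and the motifs after the promoters had been read; TATAAA, in JUNB and FOS and in 10.7% of all promoters, was searched too. Calculations were tested on simulated data. Promoters were read without the 50 bases after the start. Alternatives were floors of 25 and 100, no floor with 1 added, median centring, quantile normalization, loess (span 0.3), folds of 1.5 and 3, a signal of at least 100, means over probe sets, and no probe sets of several transcripts. Calculations used pandas 2.3.3 and numpy 2.4.6 under Python 3.11.15, loess came from statsmodels 0.14.6, and plots were drawn with matplotlib 3.10.9. The number of arrays limits the precision.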

Additional observations from a re-analysis of the deposited data

How the results depend on the processing

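With the same 2 arrays throughout, directions of all 10 genes were kept in each alternative that gave a value. JUND, FOSL2 and FOS each fell short of 1.5-fold in at least 1 of them. The medians of the JUN, FOS, ATF and MAF partners and of the KLF and SP relatives turned negative in some, at lowest -0.047 and -0.033. Without probe sets that can bind several transcripts, JUN, JUND, EGR1 and IER3 had none. The log2 ratio of FOS was 0.059 with a floor of 100, and the mean over all probe sets, in which those at or under 50 count as 0, gave 0.32 for both JUND and FOSL2. The count of probe sets of the 10 genes past the fold stayed at 0 in both directions except at 1.5-fold, where 4 were higher. Over the whole array, against 375 higher and 104 lower, there were 640 and 154 with a floor of 25, 184 and 74 with a floor of 100, 620 and 149 with no floor, 212 and 51 without probe sets of several transcripts, 1563 and 998 at 1.5-fold, and 53 and 1 at 3-fold. The median log2 ratio of the 10 genes was 0.084 with a floor of 100 and 0.31 after loess, its lowest and highest values. No paired analysis was possible because each group has 1 array. Signals near 50 are the least certain, which touches FOS, EGR1 and the dim probe sets of JUND.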
